A study of Mus musculus with 24 samples.

Results

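Transcripts of 10 genes that carry glucose into the cell and break it down to lactate were followed in cultured primary OBs from mouse parietal bone. The genes are *Slc2a1*, *Hk1*, *Hk2*, *Pfkp*, *Pfkfb3*, *Aldoa*, *Pgk1*, *Eno1*, *Pkm* and *Ldha*. They were taken by name from the 55335 genes of the count files, and all 10 were found and passed the filter on low counts that left 20287 genes for testing. The cultures came from neonatal WT pups of the C57BL/6J background and from heterozygous (Het) pups on the same background that carry 1 copy of the G610C allele, which replaces a glycine by a cysteine in the collagen chain encoded by *Col1a2*. Every culture of both genotypes was grown under osteogenic differentiation conditions with ascorbate, and RNA was collected 8, 14 and 21 days after seeding which gave 24 libraries, 4 per genotype and day. Cells of several pups of a genotype had been pooled before plating, so every p-value here measures the spread between these libraries and not between single animals. The main fit treated the libraries as independent. How much spread between cultures and litters they hold is not known. The counts do not show the base change itself, so the genotype rests on the labels.

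Glycolysis turns glucose into pyruvate in the cytosol. The transporter GLUT1, made from *Slc2a1*, brings glucose in, hexokinases trap it as a phosphate, phosphofructokinase commits it to breakdown, and the later enzymes split and oxidise the sugar until lactate dehydrogenase reduces pyruvate to lactate. Osteoblasts are known for taking up glucose through GLUT1 and for releasing lactate even when oxygen is present, and many genes of the pathway are known targets of the oxygen-sensing factor HIF1, whose core DNA motif is ACGTG or GCGTG.

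Levels are given as the relative quantity (RQ), a gene's count relative to that of 4 housekeeping genes (the geometric mean of *Sdha*, *Mrfap1*, *Actb* and *Actg1*) within each library. Totals ran from 17140202 to 59734231 counts per library, and the lowest count of any of the 10 genes in any library was 452. The 6 libraries numbered replicate 1 had 17140202 to 25825762 counts and the other 18 had 28159342 to 59734231. The study's methods describe a pair of experiments on different litters, with 1 and 2 wells per genotype and day, unequal plating densities and an expansion at lowered oxygen in the later one. These are 3 wells where the labels list 4 libraries per group, and the labels do not say which library belongs to which experiment or well. Of the genes above 20 CPM (counts scaled to a fixed library total), the level in replicate 4 lay between the lowest and highest of replicates 1 to 3 for 73.8% to 85.6% in 5 groups and for 37.3% in Het at day 21, where the same share was 15.8% to 26% for replicate 1 against its group and 33.9% to 75.7% for replicates 2 and 3. Whether the 4 libraries of a group come from 4 separate cultures is therefore not known, and n = 4 counts libraries. If they do not, the SE and p-values of the main fit may be too small. Values of replicate 1 are set beside those of replicates 2 to 4 wherever they part, and results without replicate 4 are given beside the main ones. OB marker genes were abundant in every library (summed level of 7 genes between 9590 and 84300 CPM), and the 4 endothelial markers summed to at most 2.65 CPM. In bulk RNA, fewer cells of a type and less RNA per cell cannot be told apart.

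Since the 10 genes moved together with time, the sequence before their starts is shown first. RefSeq (GRCm38.p6) gave 18 windows for the 10 genes, of which the 250 bases before each start were searched on both strands for ACGTG and GCGTG. At least 1 ACGTG was found for 7 of 10 genes, in 9 of 18 windows, where 16.6% of all 32851 mouse windows and 18.5% of 27025 genes hold one. The 10 genes have more windows per gene than all genes, and *Aldoa* windows 2 and 3 overlap and hold the same match. GCGTG was found for 6 of 10 genes, in 8 of 18 windows, where 28.2% of all windows and 30.9% of genes hold one. CACGTG, which contains ACGTG on both strands, was found for *Pfkfb3* and *Ldha* and for 6.86% of all genes. The stretches below are shown for the 4 genes with the largest rise after day 8, for *Ldha*, which had the most matches (5 of ACGTG, since each CACGTG counts on both strands), and for *Pfkp*, which rose least and had no ACGTG. The *Pgk1* stretch is chrX:106186850-106187099, plus strand. The *Pfkfb3* stretch is chr2:11502102-11502340, minus strand. The *Slc2a1* stretch is chr4:119108495-119108710, plus strand. The *Hk2* stretch is chr6:82774455-82774704, minus strand. The *Ldha* stretch is chr7:46845554-46845803, plus strand. The *Pfkp* stretch is chr13:6648778-6649021, minus strand. Bases within an annotated exon were left off, among them the only ACGTG before *Slc2a1*. The *Ldha* and *Pfkfb3* stretches lie within the longer GENCODE gene spans, before a RefSeq start in the gene. Capitals mark ACGTG and GCGTG on either strand (CACGT and CACGC are their reverse complements).
Pgk1: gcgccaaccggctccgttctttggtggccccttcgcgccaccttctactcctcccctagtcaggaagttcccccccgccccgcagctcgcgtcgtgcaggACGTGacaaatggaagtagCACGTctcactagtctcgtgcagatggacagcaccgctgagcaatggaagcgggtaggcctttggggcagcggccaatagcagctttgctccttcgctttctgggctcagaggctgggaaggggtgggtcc
Pfkfb3: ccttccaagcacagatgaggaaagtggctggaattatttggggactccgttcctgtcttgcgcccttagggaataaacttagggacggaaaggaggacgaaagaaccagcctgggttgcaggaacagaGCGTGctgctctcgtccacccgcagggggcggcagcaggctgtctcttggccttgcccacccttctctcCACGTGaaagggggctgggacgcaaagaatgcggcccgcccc
Slc2a1: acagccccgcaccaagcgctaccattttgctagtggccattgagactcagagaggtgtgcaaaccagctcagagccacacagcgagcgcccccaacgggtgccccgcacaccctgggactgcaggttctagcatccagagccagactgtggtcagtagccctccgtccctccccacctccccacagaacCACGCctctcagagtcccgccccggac
Hk2: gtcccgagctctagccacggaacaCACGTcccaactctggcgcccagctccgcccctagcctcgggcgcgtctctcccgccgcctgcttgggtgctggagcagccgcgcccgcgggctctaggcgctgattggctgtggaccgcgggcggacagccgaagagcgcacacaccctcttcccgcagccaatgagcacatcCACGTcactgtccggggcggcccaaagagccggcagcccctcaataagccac
Ldha: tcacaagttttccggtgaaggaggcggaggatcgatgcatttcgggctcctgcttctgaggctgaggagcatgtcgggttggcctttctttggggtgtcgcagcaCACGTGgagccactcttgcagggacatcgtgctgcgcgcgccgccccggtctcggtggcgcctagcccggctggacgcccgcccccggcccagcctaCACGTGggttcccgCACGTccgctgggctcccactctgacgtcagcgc
Pfkp: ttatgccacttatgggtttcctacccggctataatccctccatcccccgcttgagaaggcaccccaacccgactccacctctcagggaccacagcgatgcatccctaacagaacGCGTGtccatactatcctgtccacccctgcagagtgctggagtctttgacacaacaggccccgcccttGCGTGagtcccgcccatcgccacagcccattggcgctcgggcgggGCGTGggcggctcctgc
The matches are descriptions of the letters and not of binding. The 7 genes with ACGTG had log2 fold changes of 0.90 to 1.53 from day 8 to day 14 and the 3 without (*Hk1*, *Eno1* and *Pfkp*) had 0.36 to 0.78. These 3 each had GCGTG in the 250 bases, so all 10 genes had a match to 1 of the 2 forms. Split by GCGTG, the order was not the same. The 6 genes with it had 0.36 (*Pfkp*) to 1.48 (*Pfkfb3*), and those without it had 0.90 (*Aldoa*) to 1.53 (*Pgk1*). Among the tested genes matched to a promoter window, 40.3% of 3013 genes with the motif and 37.4% of 9631 without it were called higher at day 14, with medians of 0.13 and 0.11.

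**Figure D1:**
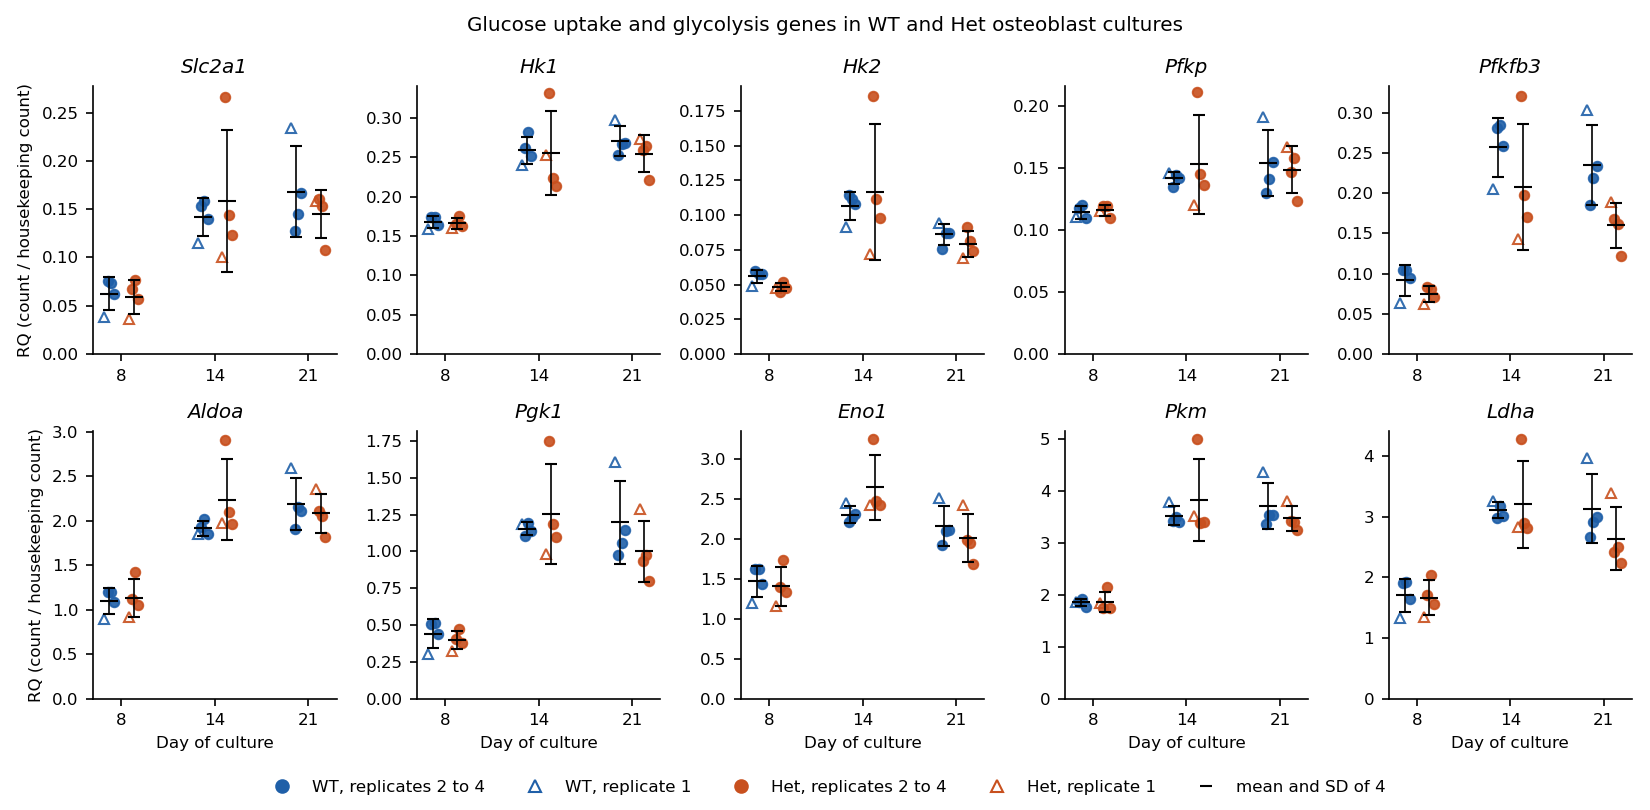
RQ (count over the housekeeping count, linear axis from 0) of the 10 genes in every library against the day of culture, WT in blue and Het in orange, with replicate 1 as open triangles and black bars for the mean and SD of 4 libraries. Every gene sits lowest at day 8, and the Het day 14 replicate 2 library is the highest point of all 24 in each panel.

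Per kb of gene length, the 10 genes fell into an abundant and a scarce group. This length counts all annotated exonic bases of a gene, from 2244 for *Pgk1* to 13401 for *Pfkp*, and is not that of 1 transcript. In WT at day 14 the RQ per kb was 0.940 ± 0.040 (SD, n = 4) for *Ldha*, 0.704 ± 0.0361 for *Pkm*, 0.657 ± 0.0279 for *Aldoa*, 0.514 ± 0.0185 for *Pgk1* and 0.428 ± 0.0191 for *Eno1*. Of the 10, the genes of the transporter and the early, rate-setting steps were scarcer, with 0.0404 ± 0.0055 for *Slc2a1*, 0.0340 ± 0.0048 for *Pfkfb3*, 0.0303 ± 0.0021 for *Hk1*, 0.0178 ± 0.0017 for *Hk2* and 0.0106 ± 0.00036 for *Pfkp*. Other phosphofructokinase genes held more than *Pfkp*, with 0.0745 ± 0.0019 for *Pfkl* and 0.0454 ± 0.0012 for *Pfkm*. *Pkm* and *Aldoa* overlapped between libraries, as did *Slc2a1*, *Pfkfb3* and *Hk1* with each other, though *Slc2a1* and *Hk1* only barely. At day 8 in WT *Pgk1* lay below *Eno1* (0.196 ± 0.044 against 0.273 ± 0.037 RQ per kb), and at day 14 it lay above it in every library. The order within a group depends on the length used. Not divided by length, *Eno1* lay above *Pgk1* in WT at day 14 as well (mean RQ of 2.30 and 1.15).

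The first comparison asked what happened to glucose-handling genes as the cultures matured from day 8 to day 14. All 10 genes rose. Of the genes tested, 34.3% were called higher and 13.6% lower (47.9% called in all), and the median log2 fold change was 0.94 over the 10 genes and 0.12 over all genes. For all 10 genes the 8 libraries of day 14 lay above the 8 of day 8 without overlap, which held upward for 12.6% of all genes tested.

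*Slc2a1*, the GLUT1 transporter, had RQ values in WT of 0.0388, 0.0756, 0.0738 and 0.0617 at day 8 and 0.115, 0.153, 0.159 and 0.140 at day 14 (replicates 1 to 4). In Het it had 0.0361, 0.0675, 0.0766 and 0.0568 at day 8 and 0.100, 0.266, 0.144 and 0.123 at day 14. Replicate 1 was the lowest of its group in all 4 groups. The rise was 2.46-fold (log2 1.30, SE 0.20, edgeR quasi-likelihood adjusted p = 1.12e-05). Both hexokinases that start the pathway in most tissues rose with it. *Hk1*, the housekeeping hexokinase, went from 0.158 to 0.175 over the 8 libraries of day 8 to 0.213 to 0.332 at day 14 (log2 0.63, SE 0.07, adjusted p = 3.64e-07). *Hk2*, the inducible one, went from 0.0449 to 0.060 at day 8 to 0.0722 to 0.186 at day 14 (log2 1.10, SE 0.13, adjusted p = 2.75e-07).

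At the phosphofructokinase step *Pfkfb3* rose more than *Pfkp*, which is 1 catalytic subunit gene of several. The change of *Pfkl*, another of them, is given below. *Pfkfb3* makes the enzyme that raises fructose 2,6-bisphosphate, the activator of phosphofructokinase. In WT its RQ was 0.0635, 0.105, 0.104 and 0.0943 at day 8 and 0.205, 0.280, 0.285 and 0.258 at day 14. In Het it was 0.0622, 0.0836, 0.0803 and 0.0710 at day 8 and 0.143, 0.320, 0.198 and 0.170 at day 14. Both genotypes rose with no overlap between days, a 2.80-fold rise (log2 1.48, SE 0.15, adjusted p = 5.7e-08) that was 1.48 within each genotype. *Pfkp*, the platelet-type catalytic subunit, had the smallest change of the 10, from 0.109 to 0.120 at day 8 up to 0.120 to 0.211 at day 14 (log2 0.36, SE 0.09, adjusted p = 0.00355). Its highest day 8 and lowest day 14 libraries all but touched. Within WT alone *Pfkp* was not called (log2 0.31, adjusted p = 0.0847), and on the scale of the total count it was not called over both genotypes (log2 0.07, adjusted p = 0.492). The other 9 genes were called within WT and all 10 within Het (23.6% and 26.5% of genes tested were called higher in these). Within Het *Pfkp* was called in 29 of 39 alternatives. The call was lost, among others, without replicate 4 (log2 0.43, edgeR adjusted p = 0.0799), without Het day 14 replicate 2 (0.21, adjusted p = 0.156), with TMM factors (0.27, adjusted p = 0.116) and on the total-count scale (0.12, adjusted p = 0.426).

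The enzymes of the lower pathway rose too. *Pgk1*, which makes the first ATP of the pathway, had the largest change of the 10, with 0.304, 0.506, 0.516 and 0.436 in WT at day 8 and 1.18, 1.10, 1.19 and 1.14 at day 14. In Het it went from 0.326, 0.402, 0.473 and 0.377 to 0.981, 1.75, 1.18 and 1.09 (log2 1.53 over both genotypes, SE 0.14, adjusted p = 9.72e-09). The libraries of day 14 were closer to each other in WT than those of Het, where replicate 2 stood alone. *Pkm*, which makes pyruvate kinase, rose from 1.74 to 2.15 at day 8 to 3.37 to 4.99 at day 14 (log2 0.98, SE 0.08, adjusted p = 1.74e-09). *Ldha*, which makes lactate dehydrogenase A, went from 1.34 to 2.04 to 2.81 to 4.28 (log2 0.91, SE 0.12, adjusted p = 1.44e-06). *Aldoa*, the aldolase that splits the sugar, had a log2 change of 0.90 (SE 0.10, adjusted p = 1.75e-07) and *Eno1*, the main enolase, one of 0.78 (SE 0.09, adjusted p = 5.56e-07).

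**Figure D2:**
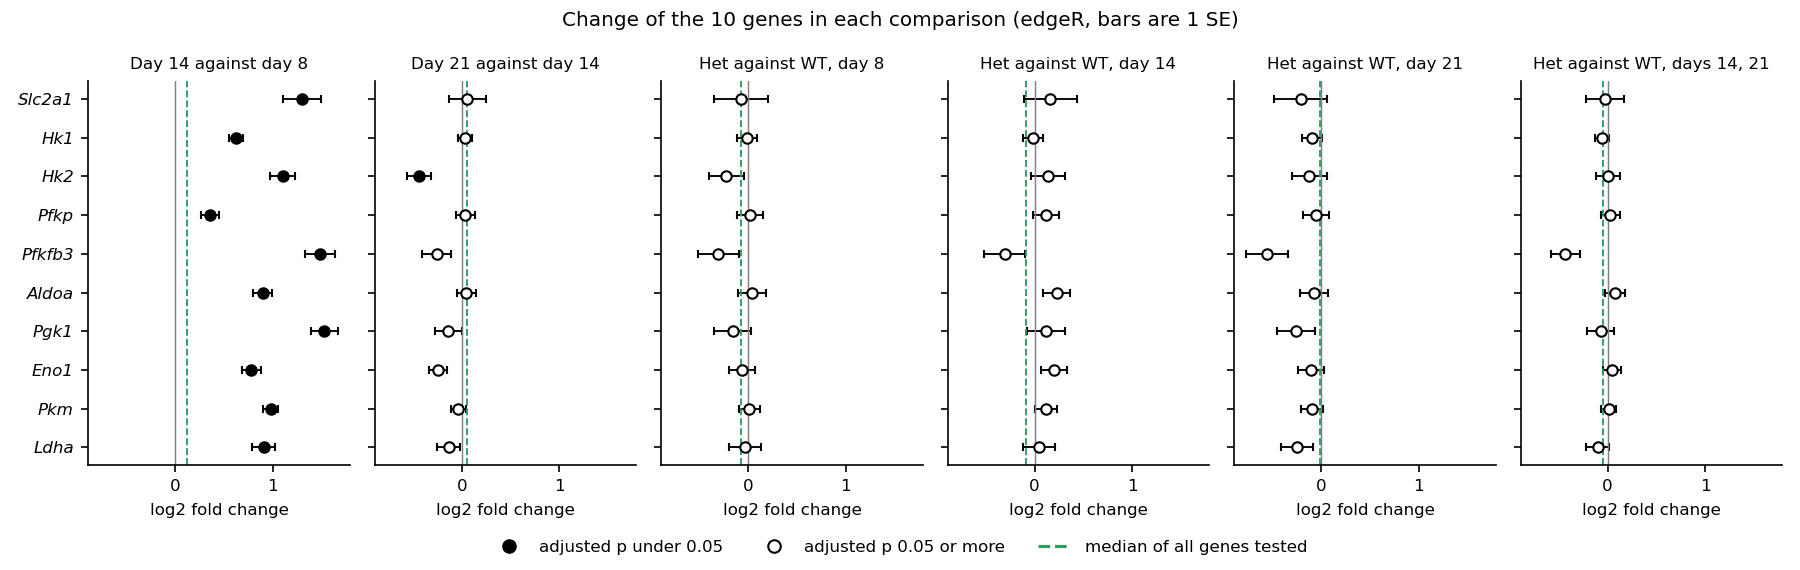
Log2 fold change (x axis) of each of the 10 genes in 6 comparisons, with bars of 1 SE, filled points where the edgeR adjusted p was under 0.05 and a dashed green line at the median of all genes tested. All 10 points are filled from day 8 to day 14, 1 (*Hk2*) from day 14 to day 21 and none between genotypes.

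The choice of scale shifted all genes in this comparison. With TMM factors the median of all genes tested was 0.00 in place of 0.12, 5221 genes were called higher and 4947 lower in place of 6962 and 2753, and the 10 genes were still all called with a median of 0.81. On the total-count scale the median of all genes was −0.15 and 9 of the 10 were called. The housekeeping genes themselves held 544.2 to 629.2 CPM (geometric mean) at day 8 and 427.7 to 516.7 CPM later. Leaving out replicate 1, replicate 4 or Het day 14 replicate 2 kept 10 of 10. Without replicate 4, 5216 genes were called higher and 1778 lower.

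Of 24 further glycolytic transporters and enzymes tested at day 14, 15 rose and 2 fell, with a list median of 0.59 beside 0.12 over all genes. The largest rises were those of *Hk3*, a hexokinase typical of myeloid cells (log2 2.90, SE 0.23), *Aldoc*, another aldolase (2.86, SE 0.18), *Pfkl*, the liver-type phosphofructokinase (1.12, SE 0.15), and *Tpi1*, triosephosphate isomerase (1.04, SE 0.11). *Pfkfb1* (−0.77, SE 0.14) and *Eno4* (−1.0, SE 0.29) fell. Around pyruvate, 7 of 18 genes rose and 2 fell, near the 34.3% and 13.6% of all genes, with a list median of 0.16. *Pdk1*, the kinase that shuts pyruvate dehydrogenase (1.63, SE 0.21), *Slc16a3*, the lactate exporter MCT4 (1.54, SE 0.40), and its chaperone *Bsg* (0.97, SE 0.10) rose most, and *Pdk4* (−0.31, SE 0.12) and *Dlat* (−0.11, SE 0.04) fell. The side branch and the mitochondrial cycle were split. Of 9 pentose phosphate genes 2 rose and 4 fell, and of 15 TCA cycle genes 6 rose and 5 fell, all by 0.33 or less on the log2 scale. On the total-count scale no gene of either list was called higher, and *Slc16a1*, *Mpc2*, *Rpia*, *Tkt* and *Arnt* were among the called list genes that changed sign.

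Genes of glucose storage and of the oxygen response rose too. Of 13 genes of glycogen and glucose synthesis, 7 rose and 2 fell, led by the muscle glycogen phosphorylase *Pygm* (log2 2.68, SE 0.25), *Fbp2* (2.10, SE 0.42), *Pygl* (1.67, SE 0.19) and *Pck2*, the mitochondrial PEP carboxykinase (1.45, SE 0.12). Of 15 known HIF targets outside glycolysis, 14 rose and 1, *Adm*, fell (−0.47, SE 0.14), with a list median of 1.59. The largest rises were in *Ankrd37* (3.92, SE 0.40), *Egln3*, an oxygen-sensing prolyl hydroxylase (3.07, SE 0.50), *P4ha1*, a collagen prolyl hydroxylase (2.33, SE 0.17), *Higd1a* (2.12, SE 0.18) and *Bnip3* (2.04, SE 0.23). These 14 and 1 were the same counts under TMM, total count, the replicate block, without replicate 1 and without Het day 14 replicate 2. Without replicate 4 it was 14 and 0. Among 13 regulators of the pathway, 6 rose and 2 fell, beside 34.3% and 13.6% of all genes. Their list median of 0.15 was near the 0.12 of all genes. *Runx2*, the OB master factor (1.00, SE 0.13), *Epas1*, which makes HIF2α (0.86, SE 0.16), and *Txnip*, an inhibitor of glucose uptake (0.64, SE 0.20), changed most. Of the 118 list genes called in this comparison, the 10 genes and the markers included, 92 were still called in the same direction without replicate 4 and none had the opposite sign.

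The make-up of the cultures moved with these genes. All 7 OB markers and all 4 osteocyte markers rose by day 14, and all 7 cell cycle genes fell. Macrophage and osteoclast markers, of which 7 of 8 rose, summed to 406 to 427 CPM in WT at day 8, 962 to 1990 CPM at day 14 and 2560 to 3000 CPM at day 21. In Het these sums were 380 to 816, 1590 to 3350 and 3110 to 7830 CPM. The 4 chondrocyte markers summed to 3320 to 17900 CPM at day 8 and 631 to 10900 CPM at day 14. The part of these cells in the rise of the 10 genes was not tested.

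From day 14 to day 21 the 10 genes no longer moved as a group over both genotypes, with 4 positive and 6 negative log2 changes. Within Het all 10 were negative (median −0.21, beside 0.09 over all genes). Within WT 7 were positive and 3 negative (median 0.06, beside 0.03 over all genes). None of the 10 was called within WT or within Het, where 1748 and 972 of 20287 genes were. Over both genotypes *Hk2* was the only one of the 10 called, and it fell (5.95% of genes tested were called lower and 12.2% higher, 18.2% in all). In WT its RQ was 0.0916, 0.115, 0.112 and 0.108 at day 14 and 0.0945, 0.0758, 0.0872 and 0.0869 at day 21. In Het it was 0.0722, 0.186, 0.112 and 0.0978 at day 14 and 0.0695, 0.0911, 0.0814 and 0.0742 at day 21. The libraries of the 2 days overlapped, with Het replicate 1 of day 14 the lowest of that day. The log2 change was −0.44 (SE 0.13, adjusted p = 0.0177). It was −0.27 without replicate 2 (adjusted p = 0.074), −0.45 without replicate 3 (adjusted p = 0.12) and −0.46 without replicate 4 (adjusted p = 0.117), so the call did not survive the loss of any of these numbers, and it was −0.28 (adjusted p = 0.0222) without Het day 14 replicate 2 alone. Within Het alone *Hk2* was not called (−0.56, adjusted p = 0.0707), but was with the replicate block (−0.54, adjusted p = 0.0414). *Eno1* had −0.24 (SE 0.09, adjusted p = 0.0775), and was called with TMM factors, DESeq2 size factors, the total count and DESeq2's Wald test.

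Replicate 1 and the other replicates went different ways over this week of culture. Within replicate 1, 8 of the 10 genes were higher at day 21 than at day 14 in both genotypes. *Slc2a1* went up 2.03-fold in WT and 1.58-fold in Het there, and *Pfkfb3* 1.48-fold and 1.32-fold. In replicates 2 to 4, *Hk2*, *Pfkfb3*, *Eno1* and *Ldha* were higher at day 21 in 0 of 6 same-numbered pairs of libraries and *Pgk1* in 1 of 6, whereas *Hk1* and *Pkm* were higher in 3 of 6. Without replicate 1, 5 of the 10 genes were called lower at day 21 (6064 of 20287 genes were called then, 2391 of them lower, against 3686 with it), namely *Hk2* (log2 −0.55, SE 0.11, adjusted p = 0.00118), *Pfkfb3* (−0.49, SE 0.12, adjusted p = 0.00501), *Eno1* (−0.34, SE 0.08, adjusted p = 0.00353), *Pgk1* (−0.34, SE 0.10, adjusted p = 0.0132) and *Ldha* (−0.29, SE 0.09, adjusted p = 0.0253). Without replicate 2, and without replicate 4, none of the 10 was called. At day 8 both replicate 1 libraries lay below the other 6 for *Slc2a1* (0.0361 and 0.0388 against 0.0568 to 0.0766). The same held for *Hk1*, *Pfkfb3*, *Aldoa*, *Pgk1*, *Eno1* and *Ldha*, though barely for *Hk1* (highest 0.161 against lowest 0.162). For *Hk2*, *Pfkp* and *Pkm* they lay within the range of the other 6. Replicate 1 also differed in depth and in its OB marker sums at day 8 (9590 and 10000 CPM, against 18400 to 26500 in the other 6 libraries). Its chondrocyte marker sums at day 14 differed too (8740 and 10900 CPM, against 631 to 5590 in the other 6 libraries). The part of these differences in this split was not tested.

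**Figure D3:**
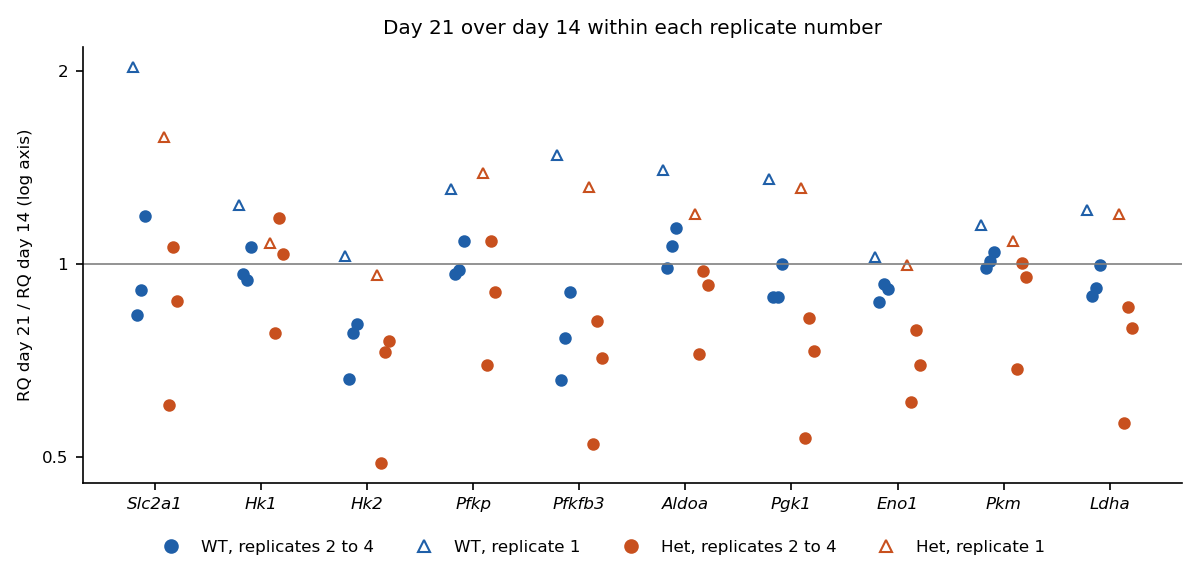
Ratio of RQ at day 21 to RQ at day 14 (log axis, line at 1) for each gene within each replicate number, WT in blue and Het in orange, replicate 1 as open triangles and replicates 2 to 4 as filled circles. The triangles lie above 1 for 8 genes in both genotypes, while all 6 circles lie below 1 for *Hk2*, *Pfkfb3*, *Eno1* and *Ldha*.

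The second question was whether the collagen mutation changed glucose-handling genes. At no day did any of the 10 genes pass the edgeR test between Het and WT. The background called was 0.641% of genes at day 8, 3.49% at day 14 and 0.946% at day 21, and 15.3% over days 14 and 21 together. At an unadjusted p under 0.05 there were 0, 0, 1 and 1 of the 10 genes in these comparisons, beside 2053, 4361, 3261 and 6113 of all 20287. DESeq2's Wald test called 0, 0, 0 and 1 of the 10, beside 2.25%, 8.44%, 3.9% and 20.2% of all genes. The gene in each case was *Pfkfb3*. The median log2 fold change of the 10 was −0.05 at day 8, 0.12 at day 14 and −0.11 at day 21, beside −0.07, −0.08 and −0.01 over all genes.

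*Pfkfb3* was lower in Het than in the WT library of the same number in 11 of 12 pairs, the exception being replicate 2 at day 14 (0.320 against 0.280). At day 21 its RQ was 0.303, 0.185, 0.218 and 0.233 in WT and 0.189, 0.168, 0.161 and 0.121 in Het. The groups overlapped by the WT value of replicate 2 alone, which lay just under the Het value of replicate 1. The log2 fold change was −0.31 at day 8 (SE 0.21, adjusted p = 0.705), −0.31 at day 14 (SE 0.21, adjusted p = 0.421), −0.56 at day 21 (SE 0.21, adjusted p = 0.206) and −0.43 over days 14 and 21 (SE 0.15, edgeR adjusted p = 0.0548), or 0.741 of the WT level.

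Same-numbered WT and Het libraries deviated together from their group means (r from 0.199 to 0.788 in 12 pairs). Over replicates 2 to 4 alone r was only −0.0138 to 0.16, so pairs with these numbers are pairs by label. With the replicate number as a block *Pfkfb3* was called over days 14 and 21 (log2 −0.45, SE 0.14, edgeR adjusted p = 0.0241). Without Het day 14 replicate 2 it was also called (−0.57, adjusted p = 0.00854), and with that library left out and the block together the adjusted p was 0.00472. Without WT day 21 replicate 1 the change was −0.36 (adjusted p = 0.113), without Het day 21 replicate 4 it was −0.38 (adjusted p = 0.125), and without both genotypes' replicate 4 it was −0.33 (adjusted p = 0.443). Over the 39 alternatives the log2 change ran from −0.61 to −0.33 and the adjusted p from 0.00472 to 0.443, with 13 calls. Its direction was the same in all 39. At day 21 alone it was called without replicate 1 (log2 −0.50, adjusted p = 0.0429). The difference of its Het effect between day 21 and day 14 was −0.25 (SE 0.30) and the one between days 14 and 21 and day 8 was −0.13 (SE 0.26), each with an edgeR adjusted p of 1.

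**Figure D4:**
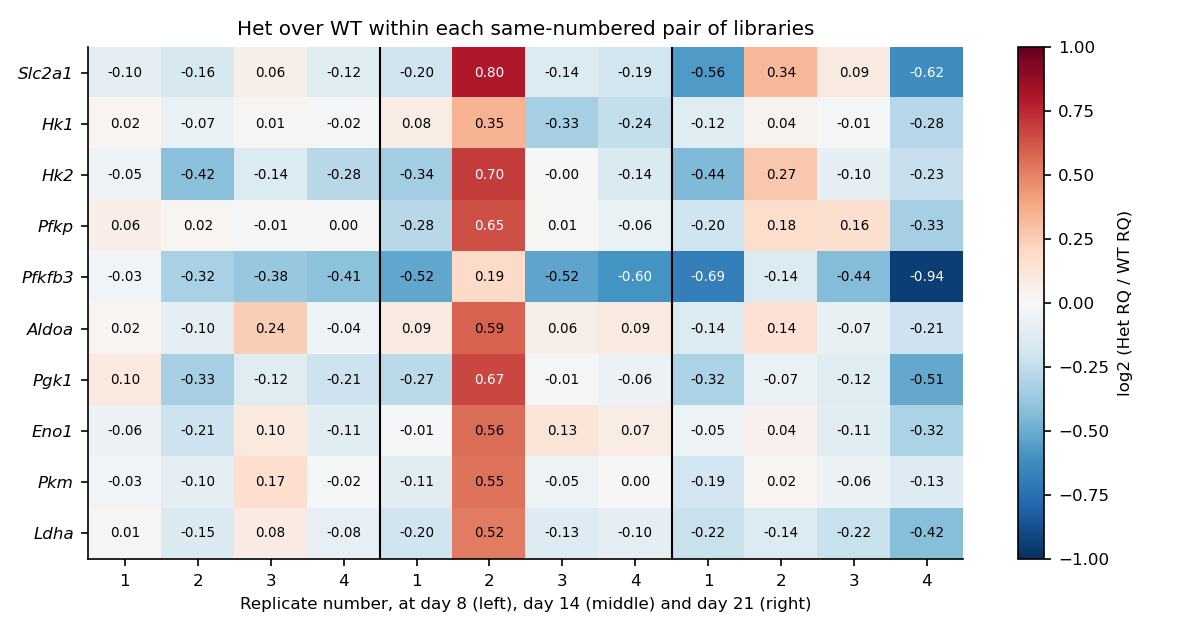
Log2 ratio of Het to WT RQ in each same-numbered pair of libraries (columns, replicates 1 to 4 at days 8, 14 and 21 from left to right) for the 10 genes (rows), with blue for lower and red for higher in Het. *Pfkfb3* is blue in 11 of 12 columns, and the day 14 replicate 2 column is red for all 10 genes.

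None of the other 9 genes was called, and at day 14 most of their signs turned on a single library. Het day 14 replicate 2 was the highest of all 24 libraries for each of the 10 genes, with an RQ of 0.266 for *Slc2a1*, 0.186 for *Hk2*, 1.75 for *Pgk1*, 4.99 for *Pkm* and 4.28 for *Ldha*. The 10 genes took 0.882% of its counts and 0.627% to 0.642% of those of the other 3 Het libraries of that day. Its total of 28159342 was the lowest outside replicate 1, while its OB and macrophage marker sums (60800 and 3350 CPM) were the highest of its group, with 49200 to 55400 and 1590 to 3310 CPM in the others. At day 14, 8 of the 10 genes had a positive log2 fold change with this library and 2 without it, and the median went from 0.12 to −0.11. At day 21 all 10 were negative, from −0.05 for *Pfkp* to −0.56 for *Pfkfb3*, with *Pgk1* at −0.26 (SE 0.19, adjusted p = 0.553) and *Ldha* at −0.25 (SE 0.16, adjusted p = 0.493) next in size. Over the alternatives *Pfkp* reached 0.07 and *Aldoa* 0.02, and the rest stayed negative. In the replicate 2 pair of that day only *Pfkfb3*, *Pgk1* and *Ldha* were lower in Het. *Hk2* and *Pgk1* were lower in Het in 10 of 12 pairs, *Ldha* in 9, *Slc2a1* and *Pkm* in 8, *Hk1* and *Eno1* in 7, and *Aldoa* and *Pfkp* in 5.

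Whether the genotypes parted with time was tested by the difference of the Het effect between days 14 and 21 and day 8. None of the 10 genes was called in edgeR (0.177% of all genes were), none had an unadjusted p under 0.05, and DESeq2 called none. The same held between single days, where 0.0592% of all genes were called for day 14 against day 8 and 0% for day 21 against day 14. For day 14 against day 8 the difference was positive for 8 of the 10 (median 0.14, beside −0.01 over all genes). For day 21 against day 14 it was negative for all 10 (median −0.28, beside 0.06). Both differences hold Het day 14 replicate 2, the highest library for each of the 10.

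Genes around the 10 were called between Het and WT over days 14 and 21. Of the 37 list genes called here, markers included, none was called without replicate 4, when 88 of 20287 genes were, and none changed sign. Of 24 further glycolytic genes, 6 were lower and 1 higher in Het (8.05% of all genes tested were lower and 7.22% higher). The lower genes were *Aldoc* (log2 −0.77, SE 0.17), *Slc2a4*, the insulin-sensitive transporter (−0.59, SE 0.15), the transporter *Slc2a12* (−0.36, SE 0.06), the muscle-type phosphofructokinase *Pfkm* (−0.34, SE 0.07), *Slc2a10* and *Pfkfb2*. *Hk3* was higher (0.80, SE 0.20). *Slc2a12* was also lower at day 21 alone (−0.45, SE 0.09, adjusted p = 0.021). Of 18 pyruvate and lactate genes, the pyruvate dehydrogenase kinases *Pdk4* (−0.65, SE 0.12) and *Pdk2* (−0.30, SE 0.09) were lower and *Dlat* (0.13, SE 0.04) was higher. Of 9 pentose phosphate genes, 3 were higher (*Taldo1* 0.32, SE 0.09, *Tigar* 0.28, SE 0.07, and *Pgls* 0.19, SE 0.05). In glycogen and glucose synthesis *Pck2* was higher (0.54, SE 0.12), and *Pygm* (−0.88, SE 0.23) and the branching enzyme gene *Gbe1* (−0.39, SE 0.09) were lower. None of 15 TCA cycle genes was called, but 6 were higher with TMM factors and 4 with the replicate block.

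Of 13 regulators of the pathway, 7 were lower in Het over days 14 and 21. They were the energy sensor subunit *Prkaa2* (log2 −0.60, SE 0.14), *Epas1* (−0.56, SE 0.16), the mitochondrial coactivator *Ppargc1a* (−0.52, SE 0.17), *Runx2* (−0.39, SE 0.13), the HIF1 subunit *Hif1a* (−0.30, SE 0.09), the insulin receptor gene *Insr* and the HIF partner *Arnt*. *Txnip* was higher (0.61, SE 0.20). The count of lower regulators was 4 with TMM factors and 4 without Het day 14 replicate 2. The HIF targets outside glycolysis showed 1 call of 15 (*Ddit4*, 0.37, SE 0.12), with a list median of −0.04 beside −0.01 over the 10 genes and −0.05 over all genes. Without Het day 14 replicate 2, none was higher and 2 were lower. Macrophage markers moved with genotype as well, 5 of 8 higher and *Mmp9* lower in Het, and 3 of 7 OB markers were lower (*Bglap* −1.54, SE 0.36, *Bglap2* −1.10, SE 0.35, and *Runx2*). The 4 chondrocyte markers all had negative log2 changes, with a median of −0.85 and 1 call (*Sox9* −0.70, SE 0.22). Their sums at day 14 were 631 to 1220 CPM in replicates 2 to 4 of Het, beside 2660 to 5590 CPM in those of WT, and 10900 and 8740 CPM in replicate 1. The part of these markers in the differences was not tested.

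Isozymes of a step were compared by RQ per kb within a library. The length used counts all annotated exonic bases of a gene, so these shares depend on the annotation and are not shares of molecules. Among the hexokinases, *Hk1* held 65.5% ± 0.9 (SD, n = 4) in WT at day 8, 55.9% ± 2.9 at day 14 and 53.0% ± 1.2 at day 21. *Hk2* held 31.3% ± 1.4, 32.9% ± 2.8 and 24.02% ± 0.66. *Hk3* went from 2.36% ± 1.3 to 10.5% ± 5.0 and 22.2% ± 1.4 in WT, and from 5.68% ± 1.6 to 18.3% ± 1.5 and 31.5% ± 5.6 in Het. At day 21 its lowest Het share (27.1%) lay above its highest WT share (23.8%). The macrophage marker sums given above rose along with it in both genotypes, and their part in it was not tested.

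At the next step *Pfkp* had the smallest phosphofructokinase share per kb, with 11.1% ± 1.5 in WT at day 8 and 8.10% ± 0.24 at day 14. *Pfkl* had 44.0% ± 6.9 and 57.1% ± 0.98. The length was 13401 bases for *Pfkp* and 3340 for *Pfkm*. Not divided by it, RQ in WT at day 14 was 0.135 to 0.146 for *Pfkp* and 0.149 to 0.157 for *Pfkm*. *Pfkfb3* held 51.7% ± 7.0 of its family at day 8, 68.3% ± 4.2 at day 14 and 62.1% ± 5.0 at day 21 in WT, and 48.2% ± 7.2, 65.9% ± 6.8 and 54.6% ± 5.5 in Het. *Slc2a1* held 36.6% ± 6.6 of the transporters measured at day 8 and 50.5% ± 7.0 at day 21 in WT. *Aldoa* held 96.3% or more of aldolase, *Eno1* 93.4% or more of enolase and *Ldha* 90.5% or more of lactate dehydrogenase subunits in the mean of each group.

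**Figure D5:**
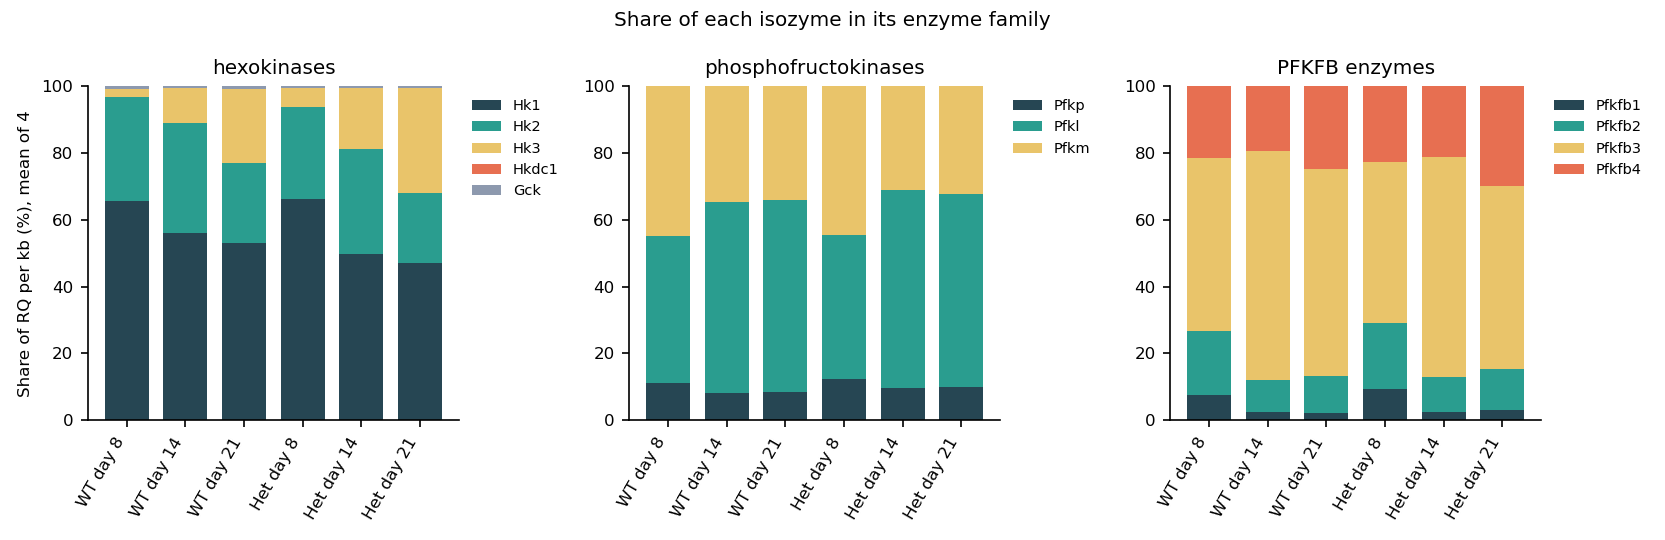
Mean share (%, 4 libraries, bars from 0 to 100) of each gene in the RQ per kb of its enzyme family, for hexokinases, phosphofructokinases and the PFKFB enzymes, by genotype and day. *Hk3* grows from 2.36% to 22.2% in WT and from 5.68% to 31.5% in Het. Per kb of annotated exon, *Pfkp* stays the smallest of its family, and *Pfkfb3* is the largest of its own in every group.

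The 10 genes varied together. Over the 24 libraries the correlation of log2 RQ between any pair of them ran from 0.79 to 0.98 (45 pairs, median 0.92), and after each group's mean was taken away it ran from 0.47 to 0.98 (median 0.79). These libraries share their day, their housekeeping scale and, for Het day 14 replicate 2, one high value for all genes, so the values are descriptions. *Pgk1* was closest to the mean of the other 9 (r = 0.99) and *Pfkp* farthest (r = 0.87). The genes most like the mean of the 10 over the 24 libraries were *Tpi1* (r = 0.99), *Bhlhe40* (r = 0.98), *Pgam1* (r = 0.98), *Prelid2* (r = 0.98) and *Gm49759* (r = 0.97). *Tpi1* and *Pgam1* are enzymes of the same pathway and *Bhlhe40* is a circadian and hypoxia-related repressor. *Gm49759* shares 767 exonic bases with *Pkm* on the same strand and held 14.0% as many counts, so reads of both cannot be told apart.

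All 10 genes are protein-coding, and their places in GENCODE release M21 of GRCm38 are as follows. *Slc2a1* spans chr4:119108711-119137983 on the plus strand. *Hk1* lies at chr10:62268855-62379908 (minus). *Hk2* lies at chr6:82725025-82774454 (minus). *Pfkp* lies at chr13:6579768-6648777 (minus). *Pfkfb3* lies at chr2:11471433-11554077 (minus). *Aldoa* lies at chr7:126795234-126800751 (minus). *Pgk1* lies at chrX:106187100-106203699 (plus). *Eno1* lies at chr4:150236721-150248879 (plus). *Pkm* lies at chr9:59656368-59679375 (plus). *Ldha* lies at chr7:46841475-46855627 (plus). On the opposite strand, *Pfkp* shares 748 of its 13401 exonic bases with *Pitrm1*, whose counts were 129% of its own, *Slc2a1* shares 105 with *Gm12868* (9.7%), *Hk1* shares 157 with *Hk1os* (0.776%) and *Aldoa* shares 25 with *Fam57b* (13.3%). The strand setting of the counting is not given in the sources used here, so such reads may be split. Transcripts of other genes with at least 100 bases at 98% identity or more were found for *Pgk1* (0.0303% as many counts), *Eno1* (0.236%) and *Pkm* (0.333%), beside the overlapping genes of *Slc2a1* and *Hk1*.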

How the data were processed

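PolyA RNA was sequenced from 24 TruSeq libraries without molecular identifiers. Per the labels, the authors trimmed reads with cutadapt 2.5, aligned them with STAR 2.73a to mm10 and deposited raw counts per gene from featureCounts 1.6.4. The deposited files also hold gene length (the annotated exonic bases over all transcripts of a gene), used here for RQ per kb. Strand and multi-mapping settings are not given in the sources used here.

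RQ is the count divided by the geometric mean of the 4 housekeeping genes. The deposited counts themselves were fitted with edgeR 4.0.16 (quasi-likelihood, R 4.3.3), with that mean as the library scale. The fit covered all 6 groups and 20287 genes kept by filterByExpr, with Benjamini-Hochberg adjustment over all of them and a threshold of 0.05. SE is the log2 fold change over the root of F. DESeq2 1.42.0, TMM, total count, no filter, blocks and left-out libraries were alternatives. The fit was tested on simulated counts of independent libraries without a replicate effect. That test could not check p-values where libraries depend on each other. Same-numbered WT and Het libraries deviated together from their group means (r from 0.199 to 0.788 in 12 pairs). Over replicates 2 to 4 alone r was −0.0138 to 0.16, so these numbers were not shown to pair the genotypes. No 2 libraries of a group agreed within sampling noise (36 pairs). Copies were sought with blastn 2.17.0.

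The genes and lists were chosen with earlier results of these data known. Up to 5 list genes per comparison with the largest called change were named; further names (single counts of 5 or fewer, *Gbe1*, *Hif1a*, *Slc2a10*, *Pfkfb2*, *Insr*, *Arnt* and genes that changed sign) were chosen after their values were seen. Likeness was Pearson's r of log2 RQ with a pseudocount of 0.5, among genes with a mean count of at least 50.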

Additional observations from a re-analysis of the deposited data

Results flagged for a closer look

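In 60 sets of 4 libraries (10 genes in 6 groups), the gap of the highest or lowest library to its nearest neighbour passed Dixon's 95% limit in 5, and chance gives about 1 in 20. In Het at day 14, replicate 2 stood above the other libraries with an RQ of 2.91 for *Aldoa*, 3.25 for *Eno1*, 4.99 for *Pkm* and 4.28 for *Ldha*. In Het at day 21, replicate 4 stood below the other libraries with an RQ of 0.108 for *Slc2a1*.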

How the results depend on the processing

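The count of the 10 genes called from day 8 to day 14 was 10 in every left-out library or number, and 0 between genotypes at days 8 and 14 and in the difference of the Het effect. Over days 14 and 21 it went from 0 to 1 between Het and WT (*Pfkfb3*) with the housekeeping scale without *Sdha*, with DESeq2's Wald test, with the replicate block, with replicate 1 against the others as a covariate, and, chosen after seeing the data, with TMM and the replicate block together and with the block without Het day 14 replicate 2. From day 14 to day 21 it went from 1 to 2 with TMM, DESeq2 size factors, the total count, DESeq2's Wald test, and TMM with the replicate block. With libraries left out, it ran from 0 to 5 from day 14 to day 21, from 0 to 1 between genotypes at day 21 and from 0 to 1 over days 14 and 21. Beside *Pfkfb3*, and *Hk2* from day 14 to day 21 within Het, the replicate block alone changed no call of the 10 genes. The call at day 21 came without replicate 1. No result changed its direction past the threshold. Over all genes, Het against WT gave 130 calls at day 8 (0 to 457 with other settings), 709 at day 14 (34 to 2371), 192 at day 21 (92 to 1363) and 3098 over days 14 and 21 (2224 to 5356). The difference of the Het effect gave 36 (27 to 89), day 14 against day 8 gave 9715 (8948 to 11563) and day 21 against day 14 gave 3686 (2928 to 5341). Leaving out a replicate number moved these counts most. Over days 14 and 21 they ran from 88 without replicate 4 to 8138 without replicate 1, at day 14 from 6 to 5651, at day 21 from 4 to 4728, and from day 14 to day 21 from 1328 to 6064, at the same numbers. At day 8 they ran from 0 without replicate 2 to 3350 without replicate 1. The cause was not tested. Counts of list genes under other settings were chosen after seeing the data. The share of calls that were higher went from 47.3% to 62% with TMM over days 14 and 21, from 56% to 75.8% at day 14, from 50.8% to 65.9% at day 8 and from 67.3% to 51.1% for day 21 against day 14. Precision was limited by the 4 libraries per group, whose number of separate cultures is not known.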

Other observations

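From day 14 to day 21, 12.2% of all genes were called higher and 5.95% lower. Of 24 further glycolytic genes 3 rose and 1 fell, near those shares, with *Hk3* at a log2 change of 1.05 and *Eno3*, the muscle enolase, at −0.98. Of 13 genes of glycogen and glucose synthesis 3 rose, among them *Pygm* at 1.01. Of 15 HIF targets outside glycolysis 2 fell, the collagen prolyl hydroxylase genes *P4ha1* (−0.49) and *P4ha2* (−0.46). Of 13 regulators 3 rose, among them *Txnip* (0.99) and *Epas1* (0.84), and *Myc* fell (−0.66). Of 15 TCA cycle genes 4 fell. Of the 37 list genes called here, *Hk2* and the markers included, 15 were still called without replicate 4, and none changed sign.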
